A study of Mus musculus with 29 samples.

Results

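MycER fibroblasts treated for 8 h with 4-hydroxytamoxifen (OHT) were compared with the same cells at 0 h. The comparison holds 8 of the 29 samples of the series, 4 total RNA libraries at 8 h and 4 at 0 h, chosen by the hours of OHT in their labels. The cells were 3T9 fibroblasts, a line that arose from mouse embryonic fibroblasts, here of stage E13.5. All groups share a mixed strain background and the genotype c-mycflox/flox, and all had been infected in culture with MycER. The 0 h libraries received ethanol (EtOH), and the 8 h libraries 400 nM OHT. Total RNA libraries at 4 h and 16 h of the same OHT dose (4 each), and 1 library each of 4sU-labelled nascent RNA at 0 h and 4 h, were set beside them. No group of fibroblasts without MycER received OHT, so effects of OHT itself and of MycER cannot be told apart. The labels do not say that replicates came from separate cultures, so p-values measure the spread between these libraries, which may be technical.

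Myc is a transcription factor that pairs with Max and binds E-boxes in DNA, of which CACGTG is the best known form. It is known for raising genes of ribosome production, metabolism and cell division, and for lowering others with partner proteins such as Miz1 (gene Zbtb17). In MycER, Myc is fused to part of the estrogen receptor, which holds it inactive until OHT binds.

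Promoter sequences are shown for 6 genes described below, chosen by no fixed rule, with CACGTG in capitals. Each is the 250 bases before the RefSeq gene start on build GRCm38.p6, 5′ to 3′ on the gene's strand. The submitters' processing notes name mm9, to which these coordinates do not apply. The 6 genes stand for no group. In windows from 250 bases before to 50 after the start, CACGTG lay in 11.7% of all tested genes with a window. Rgcc, the largest rise, and Ccng2, the largest fall, hold no CACGTG here.
Rgcc, chr14:79301636-79301885, minus strand: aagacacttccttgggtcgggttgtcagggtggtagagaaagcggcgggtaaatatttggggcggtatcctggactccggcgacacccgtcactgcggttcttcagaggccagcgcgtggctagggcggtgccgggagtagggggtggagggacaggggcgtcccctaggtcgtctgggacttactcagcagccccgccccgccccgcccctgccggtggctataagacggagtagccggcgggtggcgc
Ccng2, chr5:93267323-93267572, plus strand: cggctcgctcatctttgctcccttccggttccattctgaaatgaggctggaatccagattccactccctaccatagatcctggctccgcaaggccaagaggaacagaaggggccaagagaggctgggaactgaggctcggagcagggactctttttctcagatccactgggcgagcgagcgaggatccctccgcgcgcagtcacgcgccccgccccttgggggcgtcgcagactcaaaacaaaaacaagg
Fzd9, Dusp2 and Bhlhe41 rose and Dusp1 fell, and each holds 1 CACGTG, which begins 88, 109, 153 and 126 bases before the start.
Fzd9, chr5:135251048-135251297, minus strand: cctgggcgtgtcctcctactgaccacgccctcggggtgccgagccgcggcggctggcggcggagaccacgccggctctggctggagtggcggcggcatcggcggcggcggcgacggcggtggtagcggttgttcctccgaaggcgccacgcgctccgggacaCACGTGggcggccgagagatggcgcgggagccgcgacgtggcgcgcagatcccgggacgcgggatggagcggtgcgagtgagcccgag
Dusp2, chr2:127335909-127336158, plus strand: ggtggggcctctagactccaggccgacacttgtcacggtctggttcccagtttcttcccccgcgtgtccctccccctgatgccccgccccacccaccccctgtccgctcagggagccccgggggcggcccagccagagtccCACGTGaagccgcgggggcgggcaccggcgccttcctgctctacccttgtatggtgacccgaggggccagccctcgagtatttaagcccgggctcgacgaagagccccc
Bhlhe41, chr6:145865421-145865670, minus strand: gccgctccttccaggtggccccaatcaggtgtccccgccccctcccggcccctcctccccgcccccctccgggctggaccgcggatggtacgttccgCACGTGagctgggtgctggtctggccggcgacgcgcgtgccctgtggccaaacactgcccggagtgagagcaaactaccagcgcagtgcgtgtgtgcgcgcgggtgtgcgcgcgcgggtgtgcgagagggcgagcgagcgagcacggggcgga
Dusp1, chr17:26508473-26508722, minus strand: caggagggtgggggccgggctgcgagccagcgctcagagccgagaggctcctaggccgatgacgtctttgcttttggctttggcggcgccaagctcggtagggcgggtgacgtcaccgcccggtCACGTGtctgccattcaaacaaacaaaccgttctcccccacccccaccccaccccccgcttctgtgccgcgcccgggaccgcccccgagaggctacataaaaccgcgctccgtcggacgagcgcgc

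Values are FPKM, fragments scaled by gene length and library size. The files hold no counts, so the depth behind each value is unknown. Of 21675 genes listed, 12675 had at least 1 FPKM in at least 4 of the 8 libraries and were tested. Across genes, log2(FPKM + 0.5) correlated at 0.970 to 0.991 between libraries of the same group and at 0.957 to 0.976 between the groups. Of 16 fibroblast markers, 14 passed this filter, led by Vim at a mean of 122 FPKM, and Fap stayed under 1 FPKM.

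Among the 8 libraries, 3 stood apart. Replicate 4 at 8 h listed 1861 genes at 0, against 622 to 837 in the other 8 h libraries, and was the lowest 8 h library for 70.2% of all genes tested. The library numbered 4 listed the most genes at 0 at the other times too (1051 at 0 h, 1320 at 4 h and 1943 at 16 h). The deviations of these libraries from the mean of their time correlated between times (r of 0.33 to 0.65). The cause was not tested. Replicate 4 at 0 h held genes of activated macrophages: Lyz2 was 34.5 FPKM there and at most 0.302 in the other 15 total RNA fibroblast libraries, and Tnf was 15.8 against at most 0.442. Its 8 macrophage markers brought the summed level to 77.2 FPKM, where the lowest 0 h library had 24.4 and the 8 h libraries 20.2 to 26.6, and 3 of these markers passed the filter. Not all markers were highest there: Cd14 read 22.1 FPKM and Cd68 9.99, against 24.1 and 13.4 in 4 h replicate 3. Replicate 1 at 0 h held T cell genes, such as Cd3g at 3.52 FPKM (0.564 to 1.2 elsewhere). Other genes stood out there too, Crabp1 at 8.72 FPKM (at most 0.614 elsewhere) and Thbs2 at 4.56 (at most 0.241). Across genes this library correlated at 0.986 and 0.987 with 0 h replicates 2 and 3, which correlated at 0.984 with each other. It was thus set apart by these few genes and not by its profile over all genes. The 7 T and NK cell markers summed to 2.10 to 9.85 FPKM at 0 h and 1.42 to 3.14 at 8 h, and none passed the filter. The named genes were picked after their values were seen.

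At 8 h, 154 genes were higher and 130 lower than at 0 h at an adjusted p under 0.05 in limma's moderated test. Of all genes tested 2.24% were called, 1.21% higher and 1.03% lower. Counts of called members of gene lists below are to be read against these shares. The 2 groups of libraries did not overlap for 153 of the rises and 128 of the falls, against 13.1% of all genes tested. The change was at least 2-fold for 63 rises and 47 falls, on the scale of log2(FPKM + 0.5), which understates changes of low genes. Replicate 4 was the lowest 8 h library for 104 of the 130 falls and 76 of the 154 rises.

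The number of calls moved with the fit and with the libraries used. The main test took no account of replicate numbers, and with these as a block there were 310 rises and 417 falls. Without the 4 libraries numbered 4 there were 251 rises and 168 falls. Without 8 h replicates 1, 2, 3 and 4 in turn there were 88, 92, 88 and 154 rises, and 95, 61, 70 and 64 falls. Without 0 h replicates 1, 2, 3 and 4 there were 94, 112, 100 and 98 rises, and 62, 51, 68 and 61 falls. Leaving out together the 3 libraries that stood apart, a setting chosen after seeing the data, left 45 rises and 11 falls. All of these were among the 284 genes called with every library, and the 142 rises and 124 falls still tested all kept their sign. This setting compares 8 h replicates 1, 2 and 3 with 0 h replicates 2 and 3 only. In a call lost there, having fewer libraries and the content of those left out cannot be told apart. For the 48 named genes called, the single libraries without which a call was lost are given beside it. Where a range of adjusted p over alternatives follows a gene, its highest value is that without the 3 libraries that stood apart, except for Nr1d1.

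**Figure D1:**
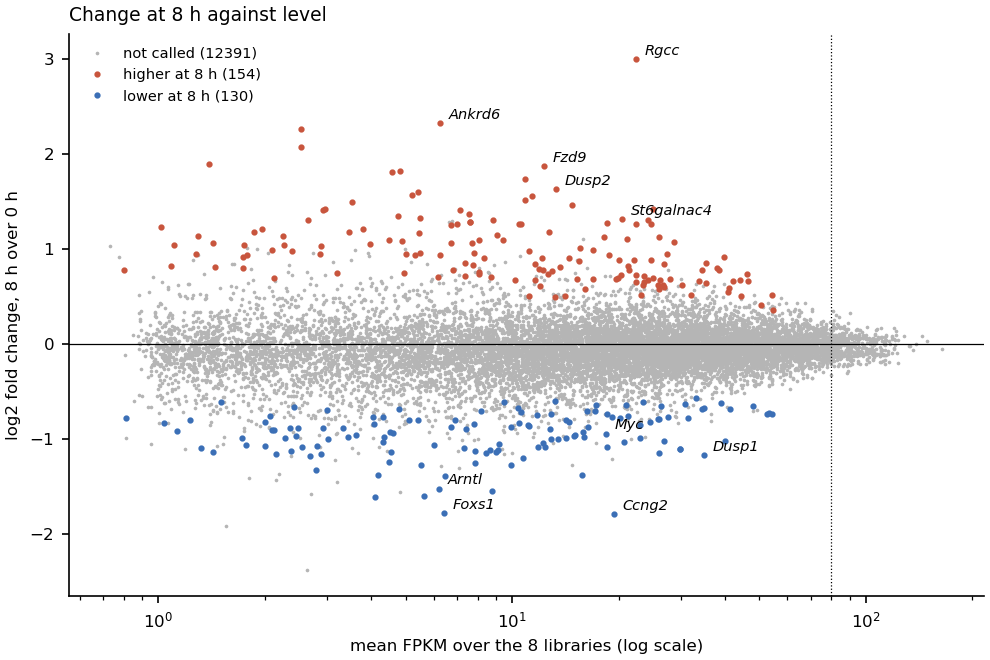
Log2 fold change at 8 h over 0 h (y axis) against mean FPKM over the 8 libraries (x axis, log scale) for the 12675 genes tested; red points are the 154 genes called higher, blue points the 130 called lower, grey points the rest, and the dotted line marks 80 FPKM. No called gene lies beyond the dotted line, where the SD of the log2 fold changes was 0.10.

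Highly expressed genes gave few calls. Of 432 genes with a mean of at least 80 FPKM none was called, and their log2 fold changes had an SD of 0.10, against 0.34 to 0.40 in the classes under 10 FPKM. The highest value of any gene lay between 139 and 201 FPKM in the 16 total RNA libraries, and the cause of this low ceiling was not tested. Whether values were capped or transformed is not given in the sources used here. Either would understate changes of highly expressed genes.

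Myc itself fell. It read 24.4, 29.7, 20.3 and 23.0 FPKM at 0 h and 13.1, 14.3, 13.3 and 9.30 at 8 h. Every 8 h library lay below every 0 h library (log2 fold change -0.94, SE 0.19, adjusted p = 0.00773). The call held without any single library (adjusted p 0.0125 to 0.0421) and was lost without the 3 libraries that stood apart (adjusted p = 0.199; 1.61e-05 to 0.199 over 21 alternatives). The files do not separate the cell's own Myc transcript from that of MycER. Among 12 tested genes of the Myc network, the 1 other call was Mxi1, a Max partner that opposes Myc. Mxi1 read 12.7, 12.8, 14.5 and 11.3 FPKM at 0 h and 18.7, 19.1, 18.7 and 21.1 at 8 h (log2 fold change 0.58, SE 0.15, adjusted p = 0.0425). This rise was lost without each of the 8 libraries in turn (adjusted p 0.0591 to 0.134; 0.000639 to 0.673 over 21 alternatives). Max, with a log2 fold change of 0.07, and Zbtb17, with 0.09, did not pass the test.

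The largest rise was that of Rgcc, a regulator of the cell cycle, whose promoter sequence above holds no CACGTG. Rgcc read 4.56, 4.37, 4.21 and 4.99 FPKM at 0 h and 38.1, 32.5, 36.3 and 54.4 at 8 h. All 8 h libraries stood far above all controls (log2 fold change 2.99, SE 0.14, adjusted p = 2.29e-11), and the log2 fold change stayed between 2.84 and 3.10 over 21 alternatives. Ankrd6 (Diversin), which acts in Wnt and planar polarity signalling, rose from 1.75 ± 0.269 to 10.8 ± 1.51 FPKM (mean ± SD, n = 4 each; limma, adjusted p = 1.59e-06).

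The 12 largest rises and 12 largest falls were taken among called genes without overlap and with a mean of at least 5 FPKM in the higher group. Their lack of overlap is therefore no added result. The rises included Fzd9, Fzd4, Adora2b and P2ry2, which are cell surface receptors. Fzd9, a receptor for Wnt proteins, read 5.43, 4.48, 5.36 and 4.80 FPKM at 0 h and 19.1, 18.0, 19.5 and 22.1 at 8 h (log2 fold change 1.87, SE 0.19, adjusted p = 7.65e-06). Fzd4, also a Wnt receptor, read 4.29, 5.61, 4.51 and 7.44 FPKM at 0 h and 16.4, 16.3, 17.2 and 15.2 at 8 h (log2 fold change 1.52, SE 0.18, adjusted p = 3.47e-05). In both genes the 8 h libraries lay close together and above all controls. Adora2b, an adenosine receptor, rose from 1.84 ± 0.334 to 7.83 ± 1.87 FPKM (n = 4 each; limma, adjusted p = 3.89e-05). P2ry2, a receptor for extracellular ATP and UTP, rose from 1.77 ± 0.327 to 7.39 ± 0.541 FPKM (limma, adjusted p = 1.93e-05). Of 19 tested genes of the Notch, Wnt and Hedgehog list, Fzd4 was the 1 rise and Hes1 the 1 fall (Fzd9 is not on this list); without the 3 libraries that stood apart 1 of the 19 was called. Hes1, a repressor that Notch signals induce, read 20.6, 18.9, 20.2 and 19.3 FPKM at 0 h and 12.2, 10.1, 11.8 and 6.41 at 8 h (log2 fold change -0.97, SE 0.20, adjusted p = 0.0115). It was not called without the 3 libraries that stood apart (adjusted p = 0.303; 2.13e-05 to 0.303 over 21 alternatives).

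Cited1, Reep6, Fam212a and Nrtn were also among the 12 largest rises. Cited1, a transcriptional co-regulator, read 3.06, 2.16, 2.44 and 1.92 FPKM at 0 h and 11.7, 8.61, 8.38 and 5.20 at 8 h. Its 8 h libraries spread widely but did not reach the controls (log2 fold change 1.59, SE 0.35, adjusted p = 0.0182). The call was lost without 8 h replicates 1, 2 or 3, without 0 h replicates 2 or 4 (adjusted p up to 0.0674), and without the 3 libraries that stood apart (0.114; 5.59e-07 to 0.114 over 21 alternatives). Reep6, a protein of the endoplasmic reticulum membrane, rose from 4.75 ± 1.04 to 17.0 ± 3.96 FPKM (n = 4 each; limma, adjusted p = 0.000205). Fam212a (Inka1), an inhibitor of the kinase Pak4, rose from 5.51 ± 0.549 to 17.2 ± 1.49 FPKM (limma, adjusted p = 3.47e-05). St6galnac4, a sialyltransferase, rose less but evenly, from 11.5 ± 0.867 to 29.5 ± 2.99 FPKM (limma, adjusted p = 3.9e-06). Nrtn, the ligand neurturin of the GDNF family, read 1.13, 2.35, 2.51 and 0.784 FPKM at 0 h and 5.21, 4.84, 6.79 and 4.57 at 8 h (log2 fold change 1.49, SE 0.30, adjusted p = 0.00839). Its controls were low and uneven, and it was not called without the 3 libraries that stood apart (adjusted p = 0.276; 2.78e-05 to 0.276 over 20 alternatives).

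**Figure D2:**
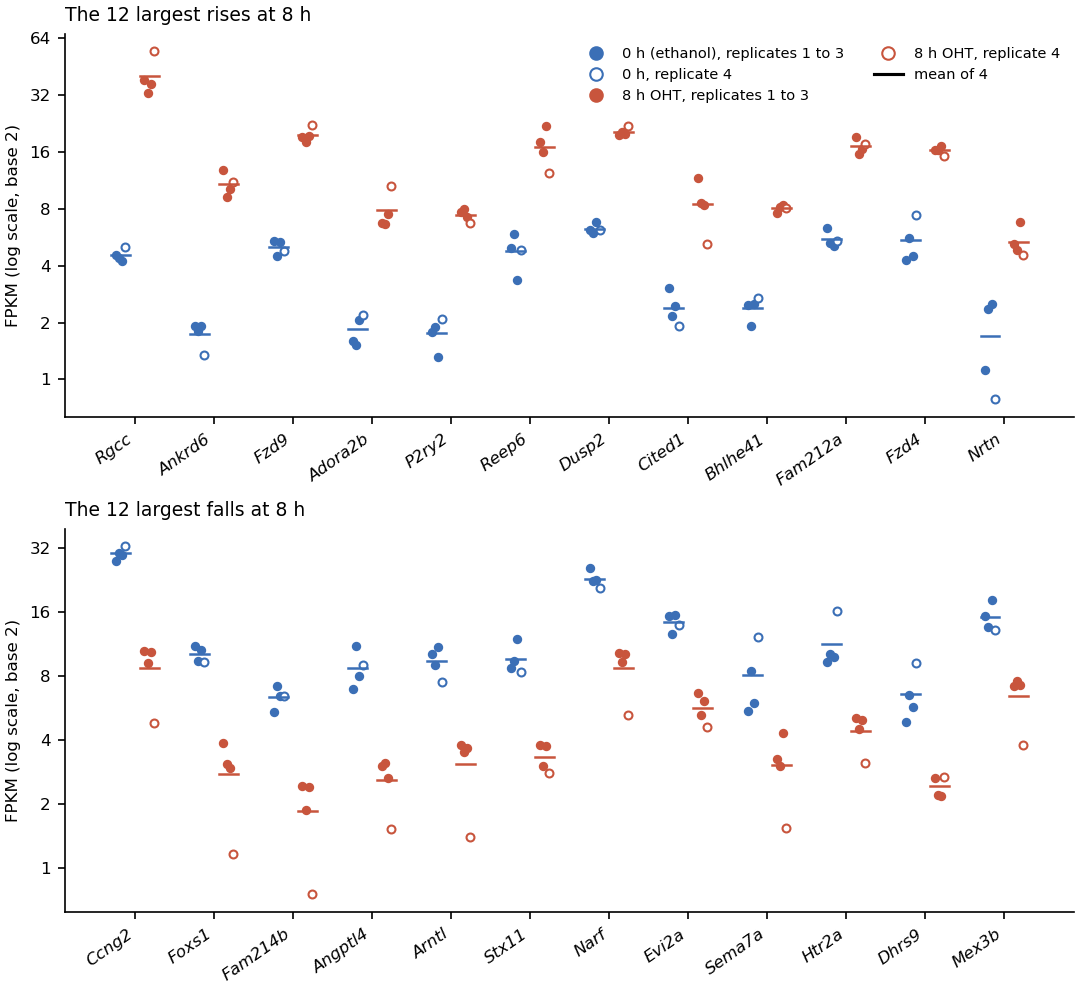
FPKM (y axes, log scale) of the 12 largest rises (upper panel) and the 12 largest falls (lower panel) in each library at 0 h (blue) and 8 h (red); points are libraries, open points are replicate 4, and bars are means of 4. No gene shown has overlapping groups, and the open red point of 8 h replicate 4 is the lowest 8 h value for 11 of the 12 falls.

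The largest fall was that of Ccng2, an unconventional cyclin linked to cell cycle arrest. Ccng2 read 27.7, 30.3, 29.6 and 32.5 FPKM at 0 h and 10.5, 9.22, 10.4 and 4.79 at 8 h. Replicate 4 lay far below the other 8 h libraries, which were themselves far below all controls (log2 fold change -1.78, SE 0.27, adjusted p = 0.000715). The log2 fold change lay between -1.89 and -1.497 over 21 alternatives. Among 28 tested G1 cyclins, E2F factors and inhibitors, Ccng2 and Cdkn2d fell and none rose. Cdkn2d, an inhibitor of cyclin D kinases, read 12.3, 11.0, 16.4 and 10.5 FPKM at 0 h and 6.68, 5.97, 7.30 and 3.58 at 8 h (log2 fold change -1.05, SE 0.25, adjusted p = 0.0277). Its call was lost without 8 h replicates 2 or 4 or 0 h replicates 1, 2 or 3 (adjusted p up to 0.112; 0.000166 to 0.277 over 21 alternatives). The list's median log2 fold change was -0.02, against -0.06 for all genes tested, and without the 3 libraries that stood apart it was 0.08 with 1 gene called.

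Angptl4, Sema7a, Htr2a and Stx11 were among the 12 largest falls. Angptl4, a secreted inhibitor of lipoprotein lipase, read 6.91, 11.0, 8.02 and 8.97 FPKM at 0 h and 3.03, 3.12, 2.65 and 1.52 at 8 h (log2 fold change -1.60, SE 0.25, adjusted p = 0.000883). Sema7a, a membrane-anchored semaphorin, read 5.45, 8.46, 5.99 and 12.2 FPKM at 0 h and 3.27, 3.03, 4.31 and 1.55 at 8 h. The controls of Sema7a spread widely, and the call (limma, adjusted p = 0.016) was lost without 0 h replicates 2 or 4 (up to 0.0745; 0.00251 to 0.259 over 21 alternatives). Htr2a, a serotonin receptor, read 9.32, 10.2, 9.77 and 16.1 FPKM at 0 h and 5.07, 4.48, 4.98 and 3.13 at 8 h (log2 fold change -1.25, SE 0.26, adjusted p = 0.012). Its highest control was the library with macrophage genes, without which it was not called (adjusted p = 0.0601; 8.27e-05 to 0.304 over 21 alternatives). Stx11, a SNARE protein of vesicle fusion, fell from 9.57 ± 1.59 to 3.33 ± 0.503 FPKM (n = 4 each; limma, adjusted p = 0.000571).

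Foxs1, a forkhead transcription factor, fell from 10.1 ± 0.882 to 2.77 ± 1.15 FPKM (n = 4 each; limma, adjusted p = 0.0013), and Fam214b from 6.36 ± 0.733 to 1.86 ± 0.78 (adjusted p = 0.00147). Narf, which binds prelamin A, fell from 22.8 ± 2.05 to 8.74 ± 2.37 FPKM (adjusted p = 0.00118). Mex3b, an RNA-binding protein, fell from 15.0 ± 2.31 to 6.45 ± 1.78 FPKM (adjusted p = 0.00695), and Dhrs9, a retinol dehydrogenase, from 6.58 ± 1.87 to 2.43 ± 0.272 (adjusted p = 0.007). Evi2a fell from 14.3 ± 1.32 to 5.65 ± 0.891 FPKM (adjusted p = 0.00839). It lies in an intron of Nf1 on the opposite strand, and whether counting used strand is not given in the sources used here, so its value is uncertain. Without the 3 libraries that stood apart, Mex3b, Dhrs9 and Evi2a were not called (limma, adjusted p = 0.114, 0.0805 and 0.193). These were the highest values over their alternatives, and the lowest were 3.42e-06, 3.64e-05 and 3.72e-06.

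Immediate early genes, which growth signals switch on within minutes, gave 4 falls and no rise among 23 tested. Dusp1, a phosphatase that switches off MAP kinases, read 52.6, 44.8, 54.5 and 42.1 FPKM at 0 h and 24.5, 19.3, 25.1 and 16.8 at 8 h (log2 fold change -1.17, SE 0.17, adjusted p = 0.000592). Btg2, an antiproliferative gene, read 12.3, 11.9, 14.2 and 11.8 FPKM at 0 h and 6.56, 5.18, 5.65 and 4.53 at 8 h (log2 fold change -1.13, SE 0.18, adjusted p = 0.000971). In both genes every 8 h library was well below every control. Ier3 fell from 66.5 ± 9.25 to 40.3 ± 7.39 FPKM (n = 4 each; limma, adjusted p = 0.00728), and was not called without the 3 libraries that stood apart (adjusted p = 0.125; 3.07e-06 to 0.125 over 21 alternatives). Fos, a subunit of the factor AP-1, fell from 4.95 ± 1.37 to 2.30 ± 0.642 FPKM (adjusted p = 0.0138). The call of Fos was lost without 8 h replicates 2 or 3 or 0 h replicate 1 (adjusted p up to 0.0715; 7.63e-06 to 0.155 over 20 alternatives). The list's median log2 fold change was -0.30 and 1 of the 23 was positive, against 39.0% of all genes tested. Without the 3 libraries that stood apart, 2 of the 23 were called and the median was -0.24. Egr1, with a log2 fold change of -0.40, and Jun, with -0.35, did not pass the test.

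Feedback genes of the MAP kinase pathway, which damp the signal that induces them, gave 2 rises and 4 falls among 14 tested. Dusp2, a nuclear phosphatase of MAP kinases, read 6.13, 5.93, 6.84 and 6.14 FPKM at 0 h and 19.6, 20.3, 19.7 and 21.8 at 8 h (log2 fold change 1.63, SE 0.12, adjusted p = 7.45e-08). Spry1, an inhibitor of receptor tyrosine kinase signals, read 7.56, 6.70, 7.08 and 9.23 FPKM at 0 h and 25.5, 19.6, 19.7 and 23.0 at 8 h (log2 fold change 1.46, SE 0.19, adjusted p = 8.63e-05). Both genes were clearly separated from their controls and kept their call in every alternative run. Dusp5, another such phosphatase, went the other way and read 32.3, 40.6, 34.0 and 57.4 FPKM at 0 h and 20.5, 16.4, 23.4 and 14.2 at 8 h (log2 fold change -1.11, SE 0.23, adjusted p = 0.012). It was not called without 0 h replicate 4 (adjusted p = 0.0583; 0.00071 to 0.255 over 21 alternatives). Dusp6, a phosphatase for Erk, read 35.5, 41.5, 33.4 and 50.1 FPKM at 0 h and 21.8, 21.3, 22.7 and 25.9 at 8 h (log2 fold change -0.78, SE 0.17, adjusted p = 0.0172). The call of Dusp6 was lost without 8 h replicates 1, 2 or 3 or 0 h replicates 2 or 4 (adjusted p up to 0.0823; 4.05e-05 to 0.23 over 21 alternatives). Errfi1, an inhibitor of the EGF receptor, fell with a log2 fold change of -0.81, a call lost without 8 h replicates 2 or 3 or 0 h replicates 1 or 4 (adjusted p up to 0.0686; 1.01e-05 to 0.385 over 21 alternatives). Spred3, an inhibitor of Ras signalling, fell with a log2 fold change of -0.97, a call that held without 8 h replicate 1 and was lost without each of the other 7 libraries (adjusted p up to 0.122; 0.000154 to 0.47 over 20 alternatives). The list's median was -0.50. Without 0 h replicate 4, and likewise without the 3 libraries that stood apart, 2 of its genes were called instead of 6; the medians were then -0.41 and -0.27.

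In the circadian clock list 2 of 15 genes rose and 1 fell. Bhlhe41, a repressor of the clock that binds E-boxes, read 2.48, 1.93, 2.50 and 2.68 FPKM at 0 h and 7.63, 8.13, 8.31 and 8.08 at 8 h (log2 fold change 1.57, SE 0.17, adjusted p = 1.8e-05). Arntl, which encodes the clock activator Bmal1, read 10.1, 8.98, 10.9 and 7.51 FPKM at 0 h and 3.79, 3.503, 3.68 and 1.41 at 8 h (log2 fold change -1.52, SE 0.25, adjusted p = 0.0013). Even its highest 8 h library was far below its lowest control. Nr1d1 (Rev-erb alpha), a nuclear receptor that represses Arntl, read 18.3, 19.8, 15.1 and 10.5 FPKM at 0 h and 44.5, 32.8, 46.4 and 20.4 at 8 h (log2 fold change 1.12, SE 0.26, adjusted p = 0.0264). Its call was lost without 8 h replicates 1, 2 or 3 or 0 h replicates 3 or 4 (adjusted p up to 0.0972; 3.38e-06 to 0.0972 over 21 alternatives). Nr1d1 overlaps Thra on the opposite strand, so its value is uncertain in the same way as that of Evi2a. The list's median log2 fold change was -0.04 with all libraries and 0.14 without the 3 that stood apart, with 3 genes called each time. Per1, with a log2 fold change of -0.49, Per2, with -0.99, and Clock, with -0.16, did not pass the test.

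The list of nucleolar ribosome biogenesis gave a single call, a share of 1.47%, near the 2.24% called over all genes tested. Of 68 tested genes of nucleolar ribosome biogenesis, Rpp40, a subunit of RNase P, was called higher. Rpp40 read 18.5, 18.0, 21.2 and 17.9 FPKM at 0 h and 25.3, 29.7, 23.7 and 30.4 at 8 h (log2 fold change 0.51, SE 0.13, adjusted p = 0.0406). The call was lost without each of the 8 libraries in turn (adjusted p 0.0502 to 0.136; 0.00366 to 0.667 over 21 alternatives). The list's median log2 fold change was 0.12 and 54 of 68 were positive. For 12 of the 68 the groups did not overlap, each time with 8 h above 0 h; of all genes tested, 4.65% lay apart in this direction and 13.1% in either. The median was 0.16 without the 3 libraries that stood apart and 0.22 under median ratio scaling. The number of members called was 5 under median ratio scaling, 8 under quantile normalization and 15 with array weights, which lower the weight of variable libraries. Ncl, with a log2 fold change of 0.09, Npm1, with -0.08, and Fbl, with 0.11, abundant nucleolar proteins, did not pass the test.

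No gene was called among 63 cytosolic ribosomal proteins, 27 translation factors, 21 aminoacyl-tRNA synthetases or 25 subunits of RNA polymerases I and III. The same held for 28 genes of purine and pyrimidine synthesis, 13 of serine and one-carbon metabolism, 13 of polyamine synthesis, 23 of glycolysis, 42 of oxidative phosphorylation, 28 of protein folding and 31 of nuclear transport. The medians of these lists lay between -0.04 and 0.07, and under median ratio scaling those below 0 were above it (ribosomal proteins -0.01, then 0.09). Odc1, the first enzyme of polyamine synthesis, went from 93.1 ± 13.2 to 88.0 ± 7.59 FPKM (n = 4 each; log2 fold change -0.07, SE 0.10). Phgdh, the first enzyme of serine synthesis, went from 104 ± 10.3 to 105 ± 6.16 FPKM (log2 fold change 0.02, SE 0.10). The median 0 h level of these lists was 31.8 to 90.6 FPKM. Of all genes tested with a mean of 20 to 40, 40 to 80 and at least 80 FPKM, 1.98%, 0.674% and 0% were called. The scale may understate changes at high levels, so the absence of calls in these lists does not show that the genes were unchanged.

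Ppargc1b, a coactivator of mitochondrial genes, was the 1 call among 37 tested genes of the mitochondrial ribosome, import and biogenesis list (2.70%, against 2.24% of all genes tested). It rose from 0.963 ± 0.326 to 2.77 ± 0.435 FPKM (n = 4 each, limma, adjusted p = 0.00614). Its 0 h libraries read 1.45, 0.792, 0.87 and 0.745 FPKM. It therefore passed the filter through the 8 h libraries, where it was high, so its test is weak support. Without the 3 libraries that stood apart Ppargc1b did not pass the filter. Slc1a5, a glutamine carrier, was the 1 call among 20 genes of amino acid transport and stress (5%). Slc1a5 read 46.9, 46.8, 48.8 and 48.3 FPKM at 0 h and 59.5, 61.0, 57.7 and 67.9 at 8 h (log2 fold change 0.36, SE 0.09, adjusted p = 0.0298), and the call was lost without each of the 8 libraries in turn (adjusted p 0.0521 to 0.138; 0.00253 to 0.6 over 21 alternatives). Of 24 tested cholesterol genes none was called, while 20 fold changes were positive, with a median of 0.18. The groups did not overlap for 7 of them, each with 8 h above 0 h (of all genes tested, 4.65% lay apart in this direction), among them Dhcr7, which went from 20.6 ± 3.31 to 30.3 ± 4.4 FPKM (limma, adjusted p = 0.181), and Lss, from 31.5 ± 4.75 to 42.9 ± 3.10 (adjusted p = 0.108), both enzymes of the pathway. Under median ratio scaling 5 cholesterol genes were called, under quantile normalization 8 and with array weights 9.

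**Figure D3:**
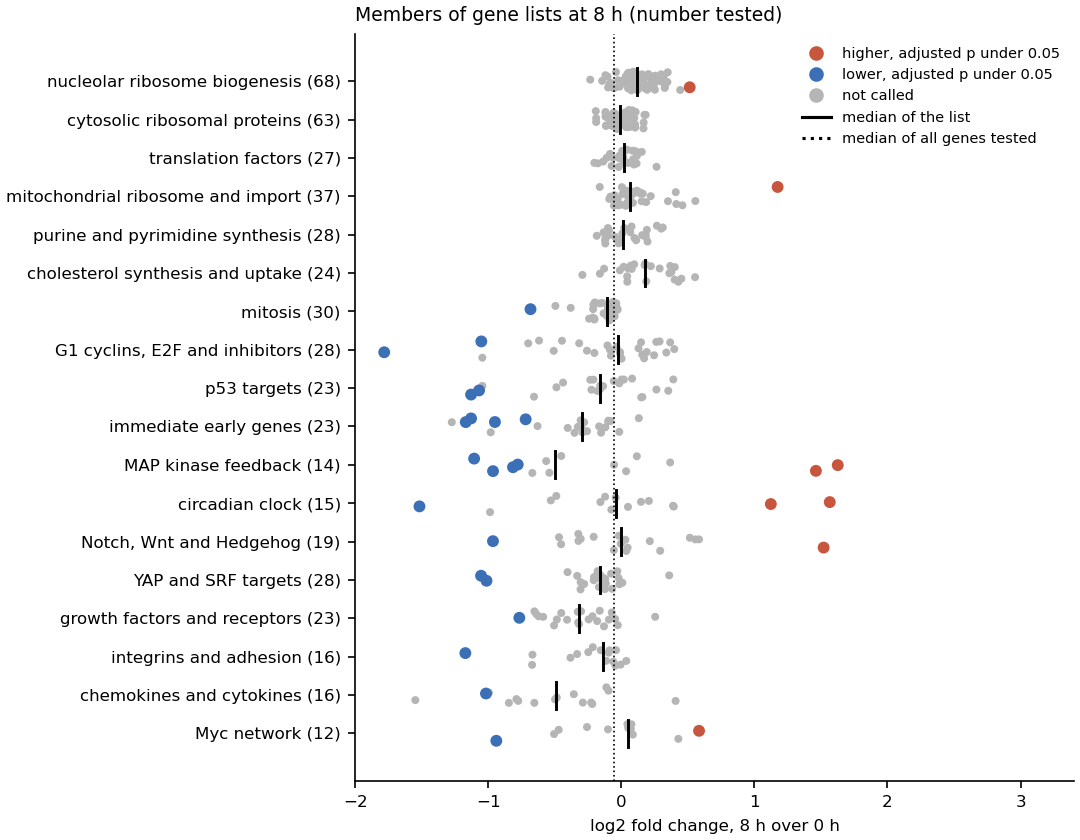
Log2 fold change at 8 h over 0 h (x axis) of each tested member of 18 gene lists (rows, with the number tested); large red and blue points are members called higher and lower, small grey points the rest, black bars the list medians, and the dotted line the median of all genes tested, -0.06. The MAP kinase feedback list has 6 calls among 14 genes and the ribosomal protein list 0 among 63.

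Cell division genes gave 1 call, which is 3.33% of the mitosis list, near the 2.24% called over all genes tested. Nusap1, a spindle protein of the mitosis list, read 47.8, 57.1, 49.6 and 49.7 FPKM at 0 h and 33.8, 34.5, 34.0 and 25.0 at 8 h (log2 fold change -0.68, SE 0.15, adjusted p = 0.0138). It was not called without 0 h replicate 2 (adjusted p = 0.0614; 9.04e-05 to 0.228 over 21 alternatives). None of the 30 mitosis genes had a positive fold change, and their median of -0.11 was -0.01 under median ratio scaling; without the 3 libraries that stood apart it was -0.07 with no gene called. None of 40 DNA replication genes was called, and their median was -0.10. Among 23 tested p53 targets, Btg2 and Eda2r, a receptor of the TNF receptor family, fell and none rose; without the 3 libraries that stood apart 1 was called and the median moved from -0.16 to -0.05. Eda2r read 3.605, 3.16, 3.11 and 6.21 FPKM at 0 h and 1.37, 1.51, 1.54 and 1.94 at 8 h (log2 fold change -1.07, SE 0.24, adjusted p = 0.0185). Its call was lost without 8 h replicates 1, 2 or 3 or 0 h replicate 4 (adjusted p up to 0.0846; 1.51e-05 to 0.287 over 20 alternatives). Cdkn1a, the p53-induced inhibitor p21, had a log2 fold change of -1.04 with overlapping groups and did not pass the test (adjusted p = 0.105).

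The lists of adhesion genes and of growth factors gave 1 fall each and the list of YAP and SRF targets 2; without the 3 libraries that stood apart none of these was called. Itga2, the integrin alpha 2 chain, was the 1 call among 16 tested integrins and adhesion genes and read 3.19, 3.64, 3.19 and 5.80 FPKM at 0 h and 1.48, 1.42, 1.501 and 1.31 at 8 h (log2 fold change -1.17, SE 0.23, adjusted p = 0.00778). It was not called without the 3 libraries that stood apart (adjusted p = 0.186; 1.79e-05 to 0.186 over 20 alternatives). Ankrd1, a target of the coactivator YAP, read 53.1, 62.5, 52.4 and 46.1 FPKM at 0 h and 27.4, 29.2, 29.2 and 19.8 at 8 h (log2 fold change -1.01, SE 0.21, adjusted p = 0.0118). It was not called without 0 h replicate 2 (adjusted p = 0.0528; 8.51e-06 to 0.129 over 21 alternatives). Actg2, a smooth muscle actin, was the other fall among 28 YAP and SRF targets (log2 fold change -1.05), and Fgf2 the 1 fall among 23 growth factors and receptors (-0.77). The calls of Actg2 and Fgf2 (limma, adjusted p = 0.0394 and 0.0423) were lost without each of the 8 libraries in turn, and their adjusted p ran from 0.000822 to 0.372 over 21 alternatives and from 0.00274 to 0.375 over 20. No gene was called among 41 of the extracellular matrix or 30 of the TGF-beta and BMP pathways.

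The interferon list and the chemokine and cytokine list gave 1 call each, and the median of the interferon list differed with and without the library that held macrophage genes. Ddx58, the RNA sensor RIG-I, was the 1 call among 11 tested interferon-stimulated genes, and fell from 6.01 ± 0.912 to 3.02 ± 0.932 FPKM (n = 4 each; limma, adjusted p = 0.0275). Its call was lost without 8 h replicates 3 or 4 or 0 h replicates 1, 2 or 3 (adjusted p up to 0.103; 8.27e-05 to 0.434 over 21 alternatives). The list's median log2 fold change was -0.50 with all libraries, -0.15 without 0 h replicate 4, and 0.17 without the 3 libraries that stood apart. Tnfaip3, an inhibitor of NF-kappaB signals, was the 1 call among 16 tested chemokines, cytokines and their regulators and read 41.3, 34.9, 32.1 and 36.0 FPKM at 0 h and 19.9, 18.4, 19.2 and 13.3 at 8 h (log2 fold change -1.02, SE 0.22, adjusted p = 0.0131). It was not called without 0 h replicate 1 (adjusted p = 0.0557; 1.16e-05 to 0.39 over 21 alternatives). That list's median was -0.49, and -0.40 without 0 h replicate 4. In bulk RNA, fewer cells of a type and less RNA per cell cannot be told apart.

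The 8 h libraries were next compared with those at 4 h and 16 h. In limma's test no gene of 12604 was called between 8 h and 4 h (0% of those tested), and none of 12586 between 16 h and 8 h (0%). At an unadjusted p under 0.05, 121 genes were higher and 63 lower at 8 h than at 4 h, and 6 were higher and 325 lower at 16 h than at 8 h. These were 1.46% and 2.63% of the genes tested, fewer than this threshold gives by chance. The median log2 fold change of all genes was -0.01 between 8 h and 4 h and -0.10 between 16 h and 8 h. Against the 0 h mean, the median gene lay at -0.35 and -0.33 in 16 h replicates 2 and 4. The part of such shifts in these counts was not tested. With array weights, 784 genes were called higher and 38 lower at 8 h than at 4 h, and 0 and 3 at 16 h than at 8 h. For both comparisons same-numbered libraries deviated together. With the replicate number as a block, 0 genes were called higher and 1 lower at 8 h than at 4 h and none between 16 h and 8 h in the fit of 16 libraries. With this block and the 8 libraries compared fitted alone, 36 were higher and 17 lower at 8 h than at 4 h, and 4 higher and 89 lower at 16 h than at 8 h. Without 4 h replicate 4, 3 genes were called higher and 1 lower at 8 h than at 4 h.

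Changes against 0 h at the 3 times share the 0 h libraries, so the levels are given side by side. Rgcc averaged 4.53, 41.4, 40.3 and 44.9 FPKM at 0, 4, 8 and 16 h. Fzd9 averaged 5.01, 18.8, 19.7 and 20.6, Dusp2 6.26, 19.6, 20.4 and 20.9 and Bhlhe41 2.40, 8.51, 8.04 and 8.40 FPKM. These 4 genes were high at 4 h and stayed near that level. Ccng2 averaged 30.0, 13.3, 8.72 and 7.99 FPKM, Arntl 9.38, 2.79, 3.09 and 2.19, Dusp1 48.5, 23.9, 21.4 and 19.6 and Myc 24.4, 10.8, 12.5 and 9.78. The difference between 8 h and 4 h was -0.06 (log2, SE 0.14) for Rgcc and -0.56 (SE 0.27) for Ccng2. Cited1 averaged 2.40, 15.5, 8.46 and 11.2 FPKM, a difference between 8 h and 4 h of -0.69 (SE 0.35) that did not pass the test.

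**Figure D4:**
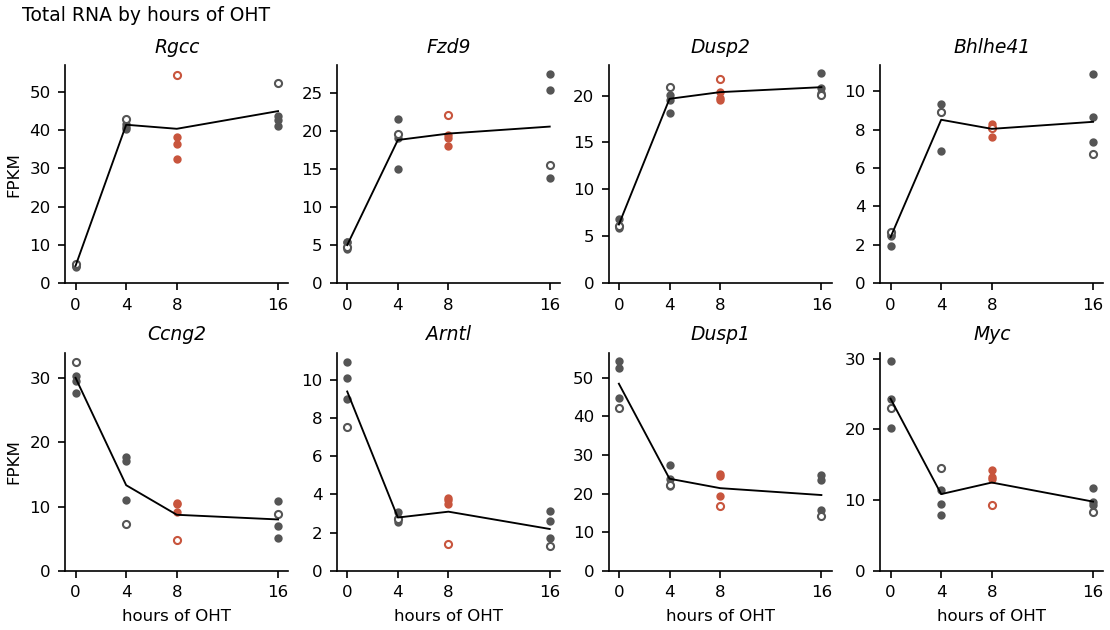
FPKM in total RNA (y axes, from 0) at 0, 4, 8 and 16 h of OHT (x axes) for 4 genes that rose and 4 that fell at 8 h; points are libraries, red at 8 h, open for replicate 4, and lines join the means of 4. Rgcc, Fzd9, Dusp2 and Bhlhe41 are high from 4 h on, and Ccng2, Arntl, Dusp1 and Myc low.

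Nascent RNA, labelled for 10 min with 300 µM 4sU, was measured in libraries that are not part of the 8 h comparison, 1 at 0 h and 1 at 4 h of OHT, so there is no test. The log2 ratio of (FPKM + 0.5) at 4 h over 0 h was above 0 for all 154 genes that were higher at 8 h in total RNA, with a median of 1.06, and at least 1 for 84 of them. It was above 0 for 4 of the 130 genes that were lower, with a median of -0.60. Over all 12675 genes tested it was above 0 for 54.3%, with a median of 0.03. In nascent RNA Rgcc read 0.589 and 8.79 FPKM at 0 h and 4 h, Fzd9 1.07 and 5.77, and Dusp2 2.33 and 9.93. Ccng2 read 6.65 and 1.70 FPKM, Arntl 5.99 and 1.44 and Myc 33.0 and 25.2. Fos, lower at 8 h in total RNA, read 1.59 and 1.78 FPKM and was 1 of the 4 exceptions. The median nascent ratio was 0.21 for nucleolar ribosome biogenesis and 0.38 for the cholesterol list.

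**Figure D5:**
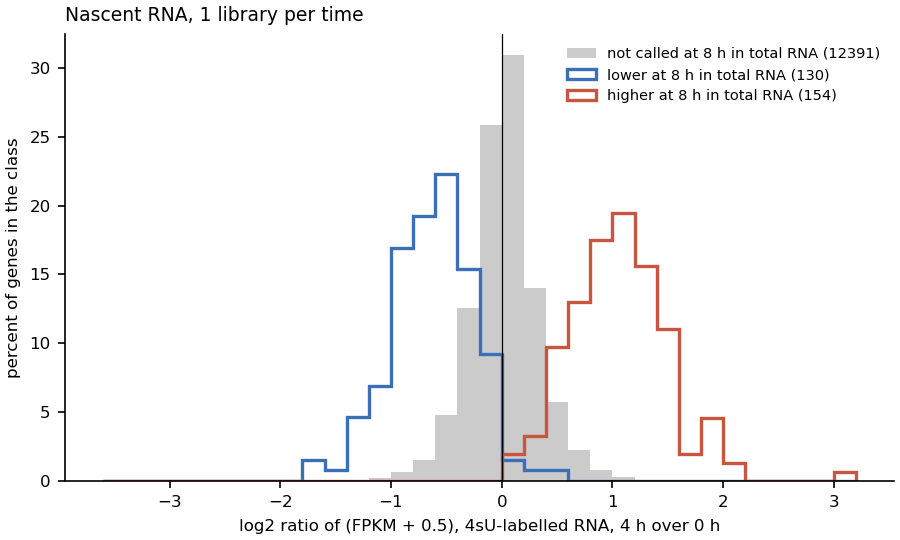
Log2 ratio of (FPKM + 0.5) in 4sU-labelled RNA at 4 h over 0 h of OHT (x axis; 1 library each) against the percent of genes in each class (y axis), for genes called higher (red outline), called lower (blue outline) or not called (grey) at 8 h in total RNA. The medians are 1.06, -0.60 and 0.03.

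In RefSeq windows from 250 bases before to 50 after the gene start, CACGTG, which reads the same on both strands, was found in 4 of the 11 largest rises with a window (Fzd9, P2ry2, Dusp2 and Bhlhe41) and in 1 of the 9 largest falls with one (Fam214b). Windows were matched for 118 (76.6%) of the 154 rises, 92 (70.8%) of the 130 falls and 9744 (76.9%) of all genes tested. Fewer than 80% of each set had a window, so a comparison of the sets is void. As a description only, CACGTG lay in a window of 16 rises (13.6%), 11 falls (12.0%) and 1139 of all tested genes with a window (11.7%).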

How the data were processed

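Total RNA of fibroblasts was extracted with the miRNeasy kit with DNase treatment, and 5 µg was depleted of ribosomal RNA with Ribozero, per the labels' protocols. The authors deposited FPKM per gene, 1 file per library. The submitters' processing notes name mm9, TopHat2 2.0.8, SAMtools and HTSeq 0.5.3p9, with no role or order. The comparison's members and the gene lists were chosen with earlier results of these data known. The 11 B cell libraries were not used.

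FPKM of the 16 total RNA fibroblast libraries were turned into log2(FPKM + 0.5) and fitted together, 1 mean per time, with limma 3.58.1 (R 4.3.3; eBayes with trend and robust). Tests were two-sided moderated tests with Benjamini-Hochberg adjustment over the genes with at least 1 FPKM in at least 4 of the 8 libraries compared, called at an adjusted p under 0.05. The fit was tested on simulated data with independent noise for each gene and library. Those data held no shifts of whole libraries and no deviations shared by replicate number. The simulation therefore says nothing about how such features moved the calls here. Low values came within 0.1 of a whole read for 33.9% to 36.6% of genes, so reads were not recovered and depth is unknown. No 2 libraries held identical values. The labels give each time the same replicate numbers. Same-numbered libraries deviated together between 8 h and 4 h (r of 0.17, 0.15, 0.18 and 0.42) and between 16 h and 8 h (0.37, 0.17, 0.25 and 0.65), so the numbers were read as pairs there, as a hint from the data: 4 h replicate 3 correlated more with 8 h replicate 1 (0.43) than with 8 h replicate 3. Between 8 h and 0 h (0.20, 0.22, 0.04 and 0.40) they were not, because replicate 3 lay under the minimum r of 0.1 that was set. Replicates 1, 2 and 4 lay above it, so the main test may leave out a real pairing. With the replicate number as a block, 310 rises and 417 falls were called.

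Named were Myc, the 12 largest rises and falls without overlap, with a mean of at least 5 FPKM in the higher group and without predicted, clone-named, small RNA or mitochondrial genes, the 5 rises and falls of smallest adjusted p, and up to 4 members per list. Others named were picked after their values were seen. Alternatives covered pseudocounts of 0.1 and 1, the filter, scaling, the fit, array weights, a replicate block and left-out libraries. Promoters came from RefSeq (GRCm38.p6). Other tools were Python 3.11.15, numpy 2.4.6, pandas 2.3.3, scipy 1.17.1 and matplotlib 3.10.9.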

Additional observations from a re-analysis of the deposited data

Results flagged for a closer look

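Among 286 groups of 4 libraries examined (genes, lists and library measures at 0 h or 8 h), 25 (8.7%) held a library whose gap to its nearest neighbour exceeded Dixon's 95% critical share of the group's range; chance gives about 5%. The 25 are 15 of genes, 9 of lists and 1 of a library measure, and 8 h replicate 4 accounts for 9 of the genes and 6 of the lists.

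In 8 h replicate 4, these genes stood below the other 8 h libraries: Ccng2 at 4.79 FPKM (others 9.22 to 10.5), Arntl at 1.41 (3.503 to 3.785), Narf at 5.25 (9.30 to 10.3), Mex3b at 3.801 (7.15 to 7.59), Nusap1 at 25.0 (33.8 to 34.5), Ankrd1 at 19.8 (27.4 to 29.2) and Id3 at 52.9 (80.7 to 86.9). In the same library Ctps at 96.7 FPKM (87.9 to 89.1) and Sqle at 105.6 (83.8 to 86.2) stood above the others. In 8 h replicate 2, Mcl1 was lowest at 53.5 FPKM (60.8 to 61.6) and Rmrp highest at 114.6 (93.0 to 95.2).

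At 0 h, Htr2a was highest in replicate 4 at 16.1 FPKM (9.32 to 10.2), Ctps in replicate 3 at 99.02 (82.3 to 84.5) and Ahcy in replicate 1 at 95.8 (78.5 to 79.8). Hist1h1b was lowest in replicate 2 at 106.9 FPKM (111.1 to 111.9). Replicate 3 had the fewest genes of at least 1 FPKM, 12430 (12767 to 12822 in the others).

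Lists are given as the median log2 difference of their members from the 0 h mean. In 8 h replicate 4 this was -0.018 for translation factors, -0.13 for RNA polymerase I and III subunits, -0.60 for the Bcl2 family, -0.39 for the extracellular matrix, -0.95 for chemokines and cytokines and -0.30 for lysosome and autophagy, each below the other 8 h libraries. Over all genes tested, the same median was -0.26 in 8 h replicate 4, against 0.023, -0.028 and 0.001 in 8 h replicates 1, 2 and 3. The list values of that library are to be read beside this shift of the whole library. At 0 h it was -0.031 for histones in replicate 2, -0.087 for the Bcl2 family in replicate 4 and -0.10 for the circadian clock in replicate 3. The part of depth or RNA quality in these values was not tested.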

How the results depend on the processing

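None of the 284 called genes changed sign under any alternative run, while 21 of the 48 named genes that were not called did. Of 48 named genes called, 30 kept the call without each single library, 18 lost it at least once and 5 (Mxi1, Rpp40, Slc1a5, Actg2 and Fgf2) lost it each time. Without single libraries, rises numbered 88 to 154 and falls 51 to 95, and 10 to 13 of the gene lists held a call, against 16 with all libraries. Without the 3 libraries that stood apart, a setting chosen after seeing the data, there were 45 rises, 11 falls and 6 lists with a call, and 22 of the 48 named genes kept their call, with fewer libraries in the fit. Without the 4 libraries numbered 4 there were 251 rises and 168 falls.

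Median ratio scaling gave 645 rises and 386 falls, quantile normalization 667 and 496 (27 lists with a call), and array weights 1097 and 772 (36 lists). The 8 libraries fitted alone gave 225 rises and 284 falls. Of the 284 calls, 152 rises and 129 falls were also called under median ratio scaling, which moved the median of all genes from -0.06 to 0.04. The cause of the added calls was not tested.

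Between 8 h and 4 h, array weights called 784 genes higher and 38 lower, leaving out the libraries numbered 4 called 146 and 14, and leaving out single libraries 0 to 3 and 0 to 1. Between 16 h and 8 h, array weights called 3 lower, and leaving out the libraries numbered 4 called 5 lower.

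Replicate numbers are shared across times. With a replicate block there were 310 rises and 417 falls, and 1 gene lower at 8 h than at 4 h. With a replicate block and the 8 libraries compared fitted alone there were 324 and 490, 36 and 17 at 8 h against 4 h, and 4 and 89 at 16 h against 8 h.

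The nascent medians for rises, falls and all genes were 1.19, -0.74 and 0.028 at a pseudocount of 0.1, and 0.92, -0.52 and 0.024 at 1. Counting CACGCG with CACGTG, 38.1% of rises, 26.1% of falls and 29.1% of all genes with a promoter window held a match. Here too fewer than 80% of each set had a window, so a comparison of the sets is void and the shares are a description only. FPKM without counts give no depth, so changes of low genes are the least certain.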

Other observations

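The genes in these paragraphs were picked after their values were seen, from the 284 called in limma's test, and stand for no group. Glul, which makes glutamine, rose from 36.0 ± 4.85 to 57.1 ± 3.90 FPKM (mean ± SD, n = 4 each; adjusted p = 0.0065), and in nascent RNA read 4.14 and 14.0 FPKM at 0 h and 4 h. Gls2, a glutaminase that breaks glutamine down, rose from 5.96 ± 1.43 to 15.0 ± 3.69 FPKM (adjusted p = 0.0136). Slc38a3, a glutamine carrier, rose from 0.29 ± 0.0818 to 2.50 ± 0.83 FPKM (adjusted p = 0.00131). It passed the filter of 1 FPKM only through the 8 h libraries, where it was high, so its test is weak support. Its 0 h level lay under the pseudocount of 0.5. Deptor, an inhibitor of mTOR, rose from 2.69 ± 0.549 to 6.27 ± 0.706 FPKM, and Rragb, a GTPase that relays amino acid supply to mTOR, from 18.6 ± 2.65 to 36.1 ± 1.88. Eef2k, a kinase that slows translation elongation, rose from 20.9 ± 0.449 to 32.6 ± 3.801 FPKM, and Mars2, the mitochondrial methionyl-tRNA synthetase, from 28.1 ± 0.539 to 48.8 ± 5.08.

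Among other rises, Ezh1, a histone methyltransferase, went from 5.86 ± 0.566 to 13.0 ± 1.14 FPKM, and Dgat2, an enzyme of triglyceride synthesis, from 18.3 ± 2.14 to 39.0 ± 2.79. Il15ra, a cytokine receptor chain, went from 3.71 ± 1.00 to 10.5 ± 1.34 FPKM and Ifi30, a lysosomal thiol reductase, from 13.8 ± 1.47 to 34.7 ± 2.56. Falls included Lamb3, a laminin chain, from 3.20 ± 0.326 to 1.52 ± 0.33 FPKM. Tlr4, a receptor for bacterial lipopolysaccharide, fell from 26.9 ± 5.27 to 15.6 ± 1.73 FPKM, and Irak2, a kinase of the same pathway, from 10.1 ± 1.75 to 5.49 ± 1.09. Plau, the urokinase protease, fell from 67.8 ± 5.66 to 41.0 ± 6.83 FPKM, Has2, a hyaluronan synthase, from 58.8 ± 5.94 to 37.3 ± 2.54, and Pim1, a survival kinase, from 16.9 ± 3.71 to 7.80 ± 1.90. In each of these genes the 4 libraries at 8 h did not overlap the 4 at 0 h. This adds little, as it held for 153 of the 154 rises and 128 of the 130 falls they were picked from. Of all genes tested it held for 13.1%. Without the 3 libraries that stood apart, Deptor, Rragb, Ezh1, Il15ra and Ifi30 were still called, Slc38a3 did not pass the filter, and the other genes of these paragraphs were not called (adjusted p 0.0609 for Mars2, the lowest, to 0.605 for Plau, the highest).

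Replicate 4 at 0 h, which held macrophage genes, read 34.6 FPKM for Tlr4 and 9.50 for Irak2. Without it the adjusted p was 0.116 for Tlr4, which was then not called, and 0.0463 for Irak2. Tlr4 was also not called without 0 h replicates 1 or 3 or 8 h replicates 1, 2 or 4 (0.00058 to 0.495 over 21 alternatives), and Irak2 not without 0 h replicates 1 or 3 or 8 h replicate 4 (0.000152 to 0.328). Without 0 h replicate 4, Gls2, Eef2k, Lamb3 and Plau were not called either (adjusted p = 0.0588, 0.0609, 0.0601 and 0.0863).

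At the threshold of adjusted p = 0.05, the genes just inside were Mir3092 (0.0487), Ulbp1 (0.0492) and Mndal (0.0496), and those just outside Shq1, Wdr44 and Tlr6 (each 0.0501). Klra15, Klra18 and Klra22, C1ra and C1rb, and Mnda and Mndal have near-identical relatives, so their values are uncertain.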
